A study of Mus musculus with 4 samples.

Results

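The replication-dependent histone genes supply the core histones H2A, H2B, H3 and H4 and the linker histone H1 to cells that copy their DNA. They were taken as every gene symbol of the Hist1 to Hist4 loci in the gene list of the libraries that starts with Hist, a locus number, h and a histone number. This rule, which uses no measured value, picked 67 of 32285 genes. Of these, 6 encode H1, 18 H2A, 18 H2B, 12 H3 and 13 H4. The Hist1 locus on chromosome 13 holds 54 members, Hist2 on chromosome 3 holds 10, Hist3 on chromosome 11 holds 2 and Hist4 on chromosome 6 holds 1.

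The libraries are droplet-based single-cell transcriptomes of whole bone marrow (BM) and spleen from C57BL/6J mice 6-8 weeks old that carried a transplanted MA9 leukaemia, a mouse model of acute myeloid leukaemia driven by the fusion gene MLL-AF9. The host mice were WT B6, and the leukaemia cells, but not the host cells, carried a doxycycline (Dox)-inducible short hairpin RNA against the arginine methyltransferase gene Prmt9 (shPrmt9) or its control (Ctrl). All 4 groups, named BM-Ctrl and BM-shPrmt9 for marrow and Spleen-Ctrl with Spleen-shPrmt9 for spleen, received Dox in the drinking water for 7 days. Where 4 values are given for 1 item below, they stand in this order. Each group is 1 library from a single representative mouse, so no difference below has a replicate check, no test was run, and the 95% intervals cover counting error only.

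Each time a cell replicates its genome it must package the new DNA, and the genes of these loci are switched on as S phase starts and their mRNA is degraded when replication ends. Their mRNAs are the known exception to polyadenylation: they end shortly after a conserved stem-loop that is bound by the protein Slbp and cut by a machinery that includes the U7 snRNP proteins Lsm10 and Lsm11. Some of the genes also make polyadenylated transcripts from signals further downstream, and such forms have been described in differentiated cells. The libraries were primed on poly(A), so the counts below are of molecules that the primer could catch, and how much of the histone mRNA in the cells this is was not measured. A unique molecular identifier (UMI) counts each caught molecule once near its 3′ end, so counts were not divided by length, and levels are given as counts scaled to a sum of 1000000 UMIs (CPM) of the same cells.

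The stem-loops and 3′ ends are shown first because some results below are set out by the kind of annotated 3′ end. In the GENCODE M21 annotation of GRCm38, a stem of 6 bases with a loop of 4 was found in an annotated 3′ UTR of 44 of the 67 members, in 6 forms. In the sequences below the stem-loop is in capitals, with up to 5 bases before it and up to 9 after it.
Hist1h2ap: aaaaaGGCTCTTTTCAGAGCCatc
Hist1h1c: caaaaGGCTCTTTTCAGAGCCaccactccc
Hist1h3c: aaaaaGGCTCTTTTAAGAGCCacctaagat
Hist1h4d: ccaaaGGCCCTTTTCAGGGCCactaccttc
Hist1h4i: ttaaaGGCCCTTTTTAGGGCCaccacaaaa
Hist2h2ac: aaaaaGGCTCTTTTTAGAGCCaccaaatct
The stem-loop of the H2A gene Hist1h2ap lies at chr13:21833029-21833044 on the minus strand, and its annotated transcript ends 3 bases later. Those of the linker histone gene Hist1h1c (chr13:23739512-23739527, plus strand) and of the H4 gene Hist1h4d (chr13:23581950-23581965, plus strand) are followed by another 840 and 770 annotated bases. The others shown are those of the H3 gene Hist1h3c (chr13:23745047-23745062, minus strand), the H4 gene Hist1h4i (chr13:22040966-22040981, minus strand) and the H2A gene Hist2h2ac (chr3:96220418-96220433, minus strand). The form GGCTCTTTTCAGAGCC was shared by 26 members of the H1, H2A, H2B and H3 families, and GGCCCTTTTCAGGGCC by 7 members, all of them H4 genes. The annotation ended within 50 bases of the stem-loop in 19 members and ran further in 25. By their annotated 3′ UTRs, 19 members hold the poly(A) signal AATAAA, 32 have a 3′ UTR of at least 40 bases without it, and 16 have a shorter 3′ UTR or none.

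Members lie close together and often share a control region, so their promoters are shown next. In RefSeq's GRCm38.p6 sequences, which were matched for 62 members and reach from 250 bases before the gene start to 50 after it, CCAAT was found on either strand in 85.5% of members against 37.4% of all 32851 promoters. TATAAA was found in 56.5% against 13.6%, and the octamer ATGCAAAT in 20.97% against 1.74%. The octamer matched 38.9% of H2A and 37.5% of H2B promoters and 0% of H1, H3 and H4 promoters, and CCAAT matched 25% of H4 promoters and 100% of those of the other families. All 3 motifs were searched on both strands, and a match to 1 may overlap a match to another. A match is a description of the letters in this window only. Below, matches to CCAAT and TATAAA on either strand are in capitals.
Hist1h2ap (chr13:21833426-21833725, minus strand): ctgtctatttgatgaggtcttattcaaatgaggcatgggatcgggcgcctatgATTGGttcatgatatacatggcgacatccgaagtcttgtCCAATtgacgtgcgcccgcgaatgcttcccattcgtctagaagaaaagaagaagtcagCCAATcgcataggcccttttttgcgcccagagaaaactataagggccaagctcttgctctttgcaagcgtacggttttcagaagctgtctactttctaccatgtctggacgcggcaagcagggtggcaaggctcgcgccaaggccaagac
Hist1h1b (chr13:21780576-21780875, minus strand): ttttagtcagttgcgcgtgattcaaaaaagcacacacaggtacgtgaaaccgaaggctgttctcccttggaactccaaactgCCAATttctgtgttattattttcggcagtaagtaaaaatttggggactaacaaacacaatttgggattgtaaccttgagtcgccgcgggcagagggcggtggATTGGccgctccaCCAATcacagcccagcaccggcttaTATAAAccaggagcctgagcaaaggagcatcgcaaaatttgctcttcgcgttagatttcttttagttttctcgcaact
Hist1h4d (chr13:23581318-23581617, plus strand): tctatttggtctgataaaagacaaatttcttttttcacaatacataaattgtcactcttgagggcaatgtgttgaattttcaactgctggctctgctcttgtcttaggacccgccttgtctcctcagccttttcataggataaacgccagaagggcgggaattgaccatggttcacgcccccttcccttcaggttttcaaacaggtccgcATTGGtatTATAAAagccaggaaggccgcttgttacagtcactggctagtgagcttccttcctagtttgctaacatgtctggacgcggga

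Over the 8901, 10175, 8306 and 7545 cells used, with 73975354 to 173456435 UMIs per library, Prmt9 itself was counted at 10.5, 6.92, 13.1 and 7.05 CPM. Between 15 and 35 cell barcodes were shared by each pair of libraries. The Y-linked gene Ddx3y gave 0 UMIs in both bone marrow libraries and 5637 and 5874 in the spleen libraries, and Xist gave 1023 and 24902 against 11 and 8, so tissue and animal cannot be told apart. Cells were sorted into classes by marker genes. Cells with UMIs of at least 3 of the MA9 markers Hoxa9, Hoxa10, Hoxa7, Hoxa5, Meis1 and Pbx3 are called Hoxa/Meis1-gated cells here and not leukaemia cells, because in 3 of the 4 libraries genes of other classes, Elane, Prtn3, Ctsg and Stfa2l1, stood among their 10 leading genes beside or in place of these markers. Markers were sought among all UMIs of a cell, so deeper cells could pass more easily, and the effect of this was not tested. There were 1657, 1974, 42 and 183 of these gated cells, with median UMIs per cell of 9.34, 5.78, 5.81 and 2.55 times the library medians. Different clusters held most of them, cluster 10 with 68.4% and 20 with 27.8% in BM-Ctrl but 8 with 51.3% and 14 with 42.7% in BM-shPrmt9, and Xist was counted in them at 0.251 and 43.9 CPM. Prmt9 was at 11.04, 6.55, 18.4 and 6.15 CPM in the Hoxa/Meis1-gated cells. It was also lower with the hairpin in spleen T cells (15.4 and 9.32 CPM), but not in monocytes/macrophages of bone marrow (12.4 and 13.1 CPM).

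The members were counted in every library, and a few genes carried most of the signal. They gave 250087, 305846, 63578 and 74246 UMIs in the 4 libraries, at levels of 1648, 1763, 859 and 764 CPM. The pooled CPM was thus higher in bone marrow, where the Hoxa/Meis1-gated cells had medians of 58894 and 48712 UMIs per cell. Among 2000 UMIs drawn from each cell, the share of cells with a member UMI was 64.3%, 60.3%, 70.03% and 52.6%, another order, so no order of the tissues is read from these values. H2A genes held 49.5% of all member UMIs, H1 genes 26.0%, H2B genes 9.12%, H4 genes 8.86% and H3 genes 6.55%. The Hist1 locus held 94.2%.

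Hist1h2ap alone held 33.1% of member UMIs, with 613, 555, 245 and 229 CPM. The next 4 were the H2A gene Hist1h2ae with 60562 UMIs over the 4 libraries and the linker histone genes Hist1h1e with 60522, Hist1h1b with 55928 and Hist1h1c with 41867. Then came Hist1h4d with 29968, the H2B gene Hist1h2bc with 18683, the linker gene Hist1h1d with 12457, the H3 genes Hist1h3e with 11745 and Hist1h3c with 11454, and the H2A genes Hist1h2ab with 11352 and Hist2h2ac with 10828. At the other end Hist1h2ba, known as a testis form of H2B, was at 0 UMIs in all 4 libraries, and Hist1h2aa and the testis linker histone gene Hist1h1t had 1 and 6.

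Counts of near-identical members are uncertain, because a read that fits several genes can be dropped or assigned to 1 of them. Of the stretches of 50 bases in the annotated transcripts of Hist1h2ap, 93.1% also occur in another member, mostly Hist1h2ao, which had 200 UMIs against 229793. More than 50% of such stretches were shared in 30 members and none in 7, among them Hist1h1b and Hist1h1a. Hist2h2aa2, all of whose stretches occur elsewhere, had 7 UMIs and its near copy Hist2h2aa1 8036.

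Neighbours that start back to back were not counted alike. There were 13 such divergent pairs with starts at most 660 bases apart, of which 12 join an H2A with an H2B gene. Hist1h2ap and Hist1h2br start 236 bases apart, and Hist1h2br had 3781 UMIs. Hist1h2ae had 60562 against 1918 of its partner Hist1h2bg, and Hist1h2ac had 5771 against 18683 of its partner Hist1h2bc. The H2A gene was thus above its H2B partner in some pairs and below it in others.

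The summed level of the 67 members differed by over 10-fold between cell classes of BM-Ctrl. It was highest in B precursors, at 6410.3 CPM (6189–6638) over 52 cells, then in basophil/mast cells at 4722 CPM and in earlier erythroid cells at 4275 CPM. B precursors and earlier erythroid cells are known as dividing stages. T cells at 369.8 CPM (341–399.9) and NK cells at 367 CPM (321–418) were lowest, and their intervals overlapped. Late erythroid cells, plasma cells, monocytes/macrophages and Hoxa/Meis1-gated cells followed the first 3 classes at 1824, 1821, 1728 and 1724 CPM, with intervals that overlapped from each to the next.

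The order of the classes was not the same in the other libraries. In BM-shPrmt9 the earlier erythroid cells had 4820.3 CPM, the basophil/mast cells 3666 CPM, the Hoxa/Meis1-gated cells 2225 CPM and the megakaryocytes 2191 CPM, and the last 2 overlapped. In Spleen-Ctrl the Hoxa/Meis1-gated cells were highest at 1736 CPM, followed by B cells at 1021 CPM, plasma cells at 888 CPM and NK cells at 733 CPM. In Spleen-shPrmt9 the earlier erythroid cells had 5766 CPM over 81 cells, the Hoxa/Meis1-gated cells 1354 CPM and the B cells 1300.3 CPM. Monocytes/macrophages were at 404 and 303 CPM in the spleen libraries, near the low end of each. The rank of the Hoxa/Meis1-gated cells moved by up to 3 places when classes were taken from clusters or each cell was weighted equally.

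**Figure D1:**
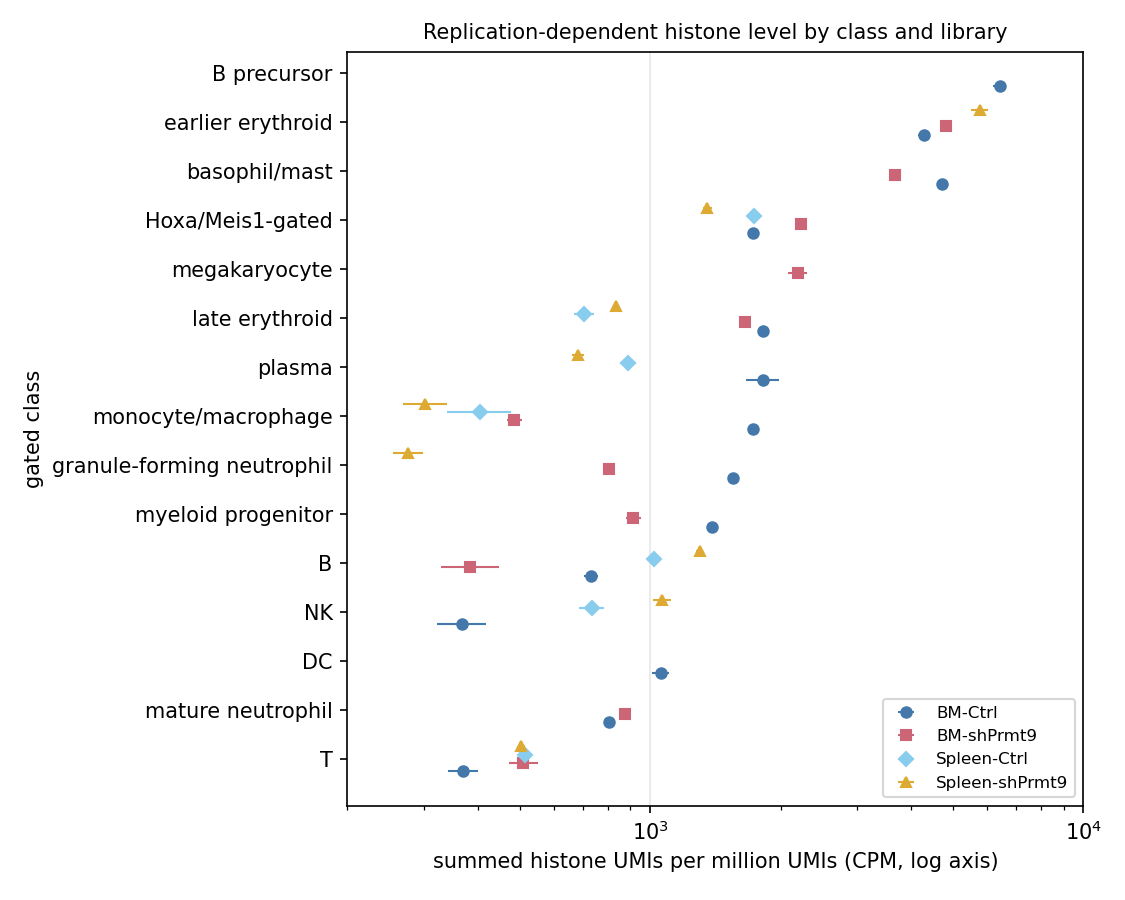
Summed CPM of the 67 members (x axis, log scale) for each cell class (y axis) with at least 30 cells, 1 point per library, with exact Poisson 95% intervals as bars. Earlier erythroid cells lie between 4275 and 5766 CPM in the 3 libraries that hold them, and T cells between 369.8 and 514 CPM in all 4.

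The ratio of histone UMIs to UMIs of 30 S-phase genes of DNA replication was high in mature neutrophils and late erythroid cells. In Hoxa/Meis1-gated cells there were 1.13, 0.914, 0.853 and 1.41 histone UMIs per S-phase UMI. T cells lay between 0.769 and 0.853. In mature neutrophils of bone marrow, cells that have left the cell cycle, the ratio was 10.8 in the control and 9.33 with the hairpin, with summed histone levels of 805 and 875 CPM. Late erythroid cells had 7.53, 7.61, 11.9 and 10.4.

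The members counted in mature neutrophils were others than in the Hoxa/Meis1-gated cells. Hist1h1c, at 281 and 249 CPM in BM-Ctrl and BM-shPrmt9, and Hist1h2bc, at 219.9 and 277 CPM, together led there, while Hist1h2ap was at 61.0 and 73.9 CPM. Both leading genes carry AATAAA in their annotated 3′ UTR, of 880 bases in Hist1h1c and 742 in Hist1h2bc. In Hoxa/Meis1-gated cells of the same libraries Hist1h2ap led with 702 and 783 CPM, Hist1h1c had 86.9 and 43.0 CPM, and Hist1h2bc had 30.002 and 14.5 CPM.

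As a group, the 19 members with AATAAA gave 69.3% and 69.0% of histone UMIs in mature neutrophils of BM-Ctrl and BM-shPrmt9. They gave 21.1% and 20.1% in Hoxa/Meis1-gated cells of these libraries and 15.1% in both spleen libraries. T cells lay between, at 39.8%, 39.5%, 29.2% and 33.3% in the 4 libraries. The 16 members with a short 3′ UTR or none gave 0.789% and 0.967% in mature neutrophils and 9.69% and 15.5% in Hoxa/Meis1-gated cells of bone marrow. H1 genes made up 45.5% of histone UMIs in mature neutrophils of BM-Ctrl, 44.3% in T cells and 50% in NK cells, against 21.7% in the Hoxa/Meis1-gated cells. Only 1 of the 2311 mature neutrophils of BM-Ctrl that were deep enough, and 6 of 2843 of BM-shPrmt9, passed the S-phase gate described next.

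**Figure D2:**
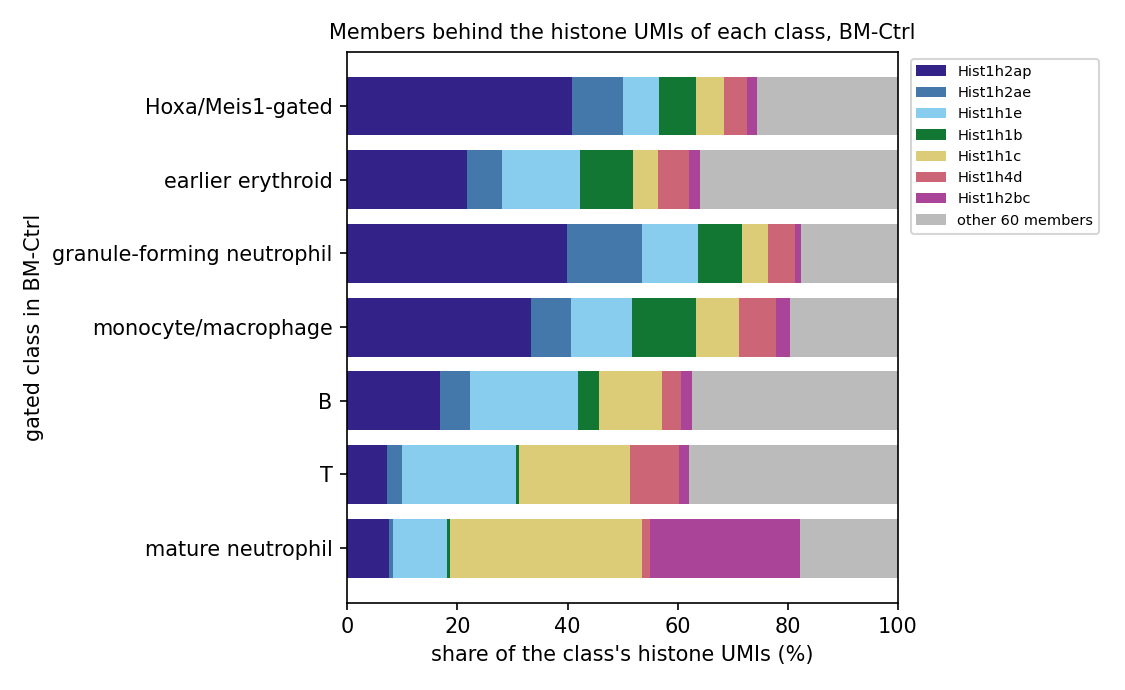
Share of each class's histone UMIs in BM-Ctrl (x axis, percent, stacked bars that add up to 100) by member, for the 7 members with the most UMIs and the other 60 together (colours), with 7 classes on the y axis. In mature neutrophils Hist1h1c takes 34.9% and Hist1h2bc 27.3%, and in Hoxa/Meis1-gated cells Hist1h2ap takes 40.7%.

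To compare cells at equal depth, 2000 UMIs were drawn from each cell, and a cell with at least 3 UMIs of the S-phase list among them was called S-phase-gated. No histone gene is on that list. In the Hoxa/Meis1-gated cells of BM-Ctrl the gate took 599 of 1657 cells, and the histone level was 3189 CPM in them and 769.9 CPM in the others, a ratio of 4.14 (4.10–4.19). In BM-shPrmt9 it took 1152 of 1973 cells with 2948 and 752 CPM, a ratio of 3.92 (3.87–3.97). In Spleen-shPrmt9 it took 31 of 183 cells with 3413 and 821 CPM, a ratio of 4.16 (3.96–4.36). How near these ratios lie to each other depends on the gate: with at least 2 S-phase UMIs they were 4.32, 4.73 and 6.03, and with at least 5 they were 3.70 and 2.86 in bone marrow. In Spleen-shPrmt9, 7 of the 31 gated cells held 92.6% of the gated histone UMIs, and these 7 also passed the mitosis gate described below. Without cells of that gate on either side the 3 ratios were 3.44 (3.38–3.51), 7.42 (7.24–7.61) and 1.32 (1.15–1.52).

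Most members were higher in the S-phase-gated cells. In BM-Ctrl, 62 members passed a minimum of 20 UMIs, 50 were over 2-fold higher and 0 were over 2-fold lower, against 4.33% and 4.96% of all 12964 genes that passed. In BM-shPrmt9 it was 55 higher and 0 lower of 62, against 6.53% and 9.19% of genes. In Spleen-shPrmt9 it was 23 higher and 1 lower of 29, against 9.68% and 5.09% of genes. The median log2 ratio of the members was 1.72, 1.69 and 1.68, and that of all genes 0.00, -0.01 and 0.10. The members and the S-phase list are both known as genes of replicating cells.

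Single members spread widely around these sums. Hist1h1b was at 250.3 CPM in S-phase-gated cells of BM-Ctrl and 29.3 CPM in the others, a ratio of 8.56 (8.13–9.005), and at 363 and 57.6 CPM in BM-shPrmt9, a ratio of 6.30 (6.02–6.60). Hist1h2ap was at 1416 and 237.5 CPM in BM-Ctrl (5.96-fold), at 1054 and 229 CPM in BM-shPrmt9 (4.602-fold) and at 1973 and 379 CPM in Spleen-shPrmt9 (5.20-fold). Hist1h2ae was 6.27-fold and 5.27-fold higher in the bone marrow libraries, Hist1h4d 3.63-fold and 2.54-fold, and Hist1h1e 2.86-fold and 2.56-fold.

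The 2 genes that led in mature neutrophils did not share this pattern. Hist1h1c was at 89.3 CPM in S-phase-gated cells and 85.3 CPM in the other cells of BM-Ctrl, a ratio of 1.05 (1.003–1.09), and at 49.0 and 30.8 CPM in BM-shPrmt9, a ratio of 1.59 (1.48–1.70). Hist1h2bc was at 21.2 and 35.7 CPM, a ratio of 0.594 (0.548–0.644), in BM-Ctrl, 0.990 (0.888–1.10) in BM-shPrmt9 and 0.935 (0.494–1.66) in Spleen-shPrmt9. Another member with AATAAA, the H2A gene Hist3h2a, had a ratio of 1.34 in BM-Ctrl and 0.564 (0.447–0.713) in BM-shPrmt9.

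By 3′ end, among members with at least 50 UMIs in BM-Ctrl, the median ratio was 2.42 over 16 members with AATAAA, 3.44 over 31 without it and 5.73 over 12 with a short 3′ UTR or none. In BM-shPrmt9 the medians were 2.91, 3.30 and 3.96 over 16, 30 and 14 members. The ranges overlapped, from 0.594 to 6.27 with AATAAA and from 0.895 to 7.24 without it in BM-Ctrl. In spleen T cells of Spleen-Ctrl the medians were 0.863 over 10 members with AATAAA and 1.76 over 13 without it, and in those of Spleen-shPrmt9 1.10 over 10 and 1.16 over 14. This grouping was chosen after the values had been seen.

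**Figure D3:**
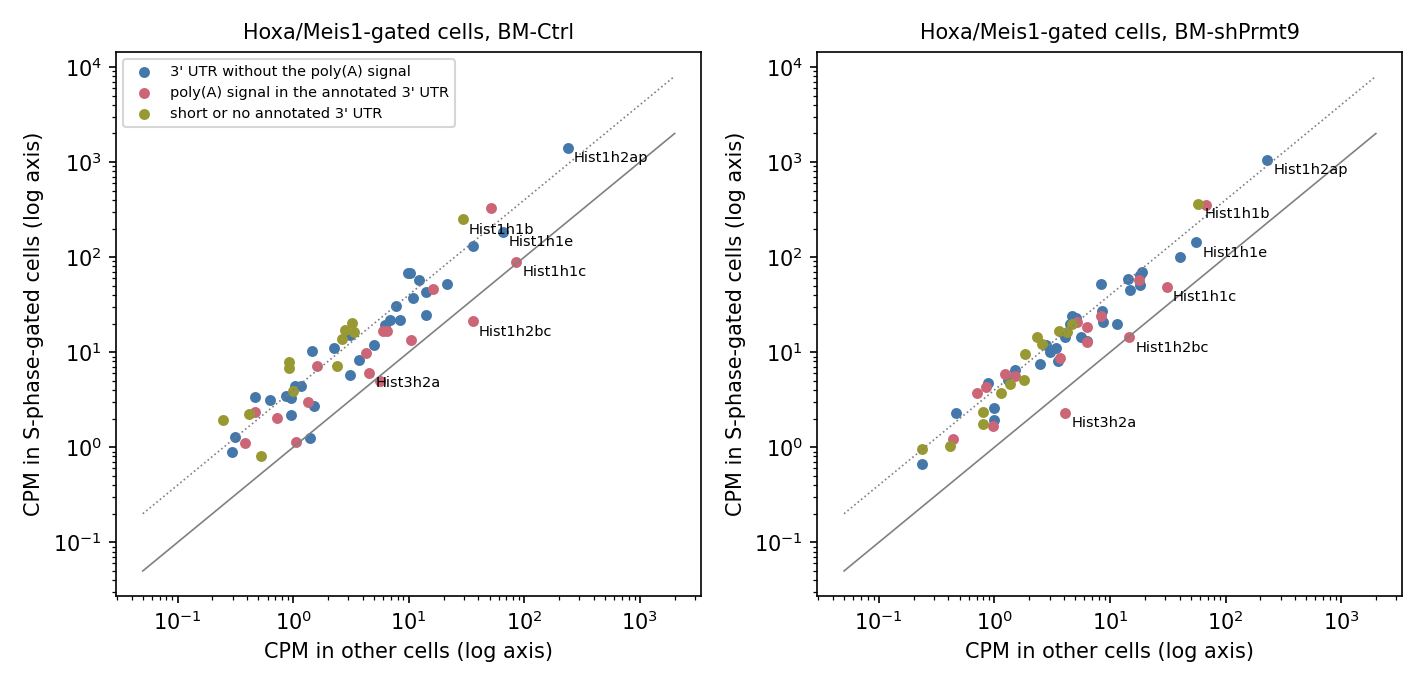
CPM of each member with at least 50 UMIs in cells outside the S-phase gate (x axis) and inside it (y axis), both on log scales, for Hoxa/Meis1-gated cells, with colours by the kind of annotated 3′ end. The solid line marks equal levels and the dotted line 4-fold higher ones; Hist1h1b lies 8.56-fold above equality in BM-Ctrl, and Hist1h2bc lies below it at 0.594.

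The same gate gave other sizes in other classes. In granule-forming neutrophils of bone marrow, which hold the last divisions of that lineage, 42 and 39 of the 49 gated cells of either library also passed the mitosis gate and held 99.5% of the gated histone UMIs in each. Histone levels were 9122 CPM in the 49 gated cells and 654 CPM in the others of BM-Ctrl, a ratio of 13.9 (13.5–14.4), and 7161 and 419.6 CPM in BM-shPrmt9, a ratio of 17.1 (16.6–17.6). Hist1h1b was 23.0-fold and 36.1-fold higher there and Hist1h2bc 2.32-fold and 2.03-fold. In spleen T cells the sum was 1093 and 428 CPM in Spleen-Ctrl, a ratio of 2.56 (2.44–2.68), and 696 and 471 CPM in Spleen-shPrmt9, a ratio of 1.48 (1.41–1.55). Of the 128 and 292 gated T cells, 3 and 2 also passed the mitosis gate and held 35.7% and 25.5% of the gated histone UMIs. Without cells of that gate the ratios were 1.77 (1.67–1.87) and 1.15 (1.09–1.21), and the means per 2000 UMIs were 1.02 against 0.859 and 1.02 against 0.964, with a median of 1 in all 4 groups of cells.

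In those T cells, 15 of 33 members were over 2-fold higher and 2 lower in gated cells of Spleen-Ctrl, against 7.39% and 7.79% of genes, and 7 of 39 higher and 0 lower in Spleen-shPrmt9, against 2.8% and 3.88%. Hist1h2ap was at 515.6 and 38.4 CPM in Spleen-Ctrl and at 188.6 and 64.7 CPM in Spleen-shPrmt9, while Hist1h1e was nearly level, with ratios of 1.15 (0.98–1.33) and 1.20 (1.06–1.36). In spleen B cells the sum was 1.91-fold higher in gated cells of Spleen-Ctrl and 6.39-fold in those of Spleen-shPrmt9. Of the 354 and 75 gated B cells, 12 and 13 also passed the mitosis gate and held 55.8% and 83.4% of the gated histone UMIs, and without cells of that gate the ratios were 0.920 (0.887–0.955) and 1.37 (1.29–1.46). The higher sum in gated B cells of Spleen-Ctrl was thus carried by those 12 cells. The size in T and B cells moved by over 1.5 times with the number of S-phase UMIs asked for.

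Cells that also carried mitosis transcripts held the most histone UMIs. With a gate of at least 3 UMIs of 20 mitosis genes added after the values had been seen, the 286 Hoxa/Meis1-gated cells of BM-Ctrl in both gates had a mean of 9.71 histone UMIs per 2000, the 154 with mitosis genes alone 4.44, the 313 with S-phase genes alone 2.33 and the 904 in neither 0.782. In BM-shPrmt9 the means were 7.80, 3.71, 2.75 and 0.467 over 505, 146, 647 and 675 cells. Both libraries had the same order of states. In granule-forming neutrophils of BM-Ctrl the mean was 21.02 in 42 cells of both gates and 0.552 in 714 of neither.

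By S-phase UMIs alone, the mean in BM-Ctrl went from 1.03 histone UMIs per 2000 in 451 cells without an S-phase UMI to 9.84 in 106 cells with at least 10. In BM-shPrmt9 it went from 0.552 in 382 cells to 7.91 in 226 cells. At every S-phase level some cells held few histone UMIs: among the BM-shPrmt9 cells with at least 10 S-phase UMIs the lower quartile was 1 and the upper 13.

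**Figure D4:**
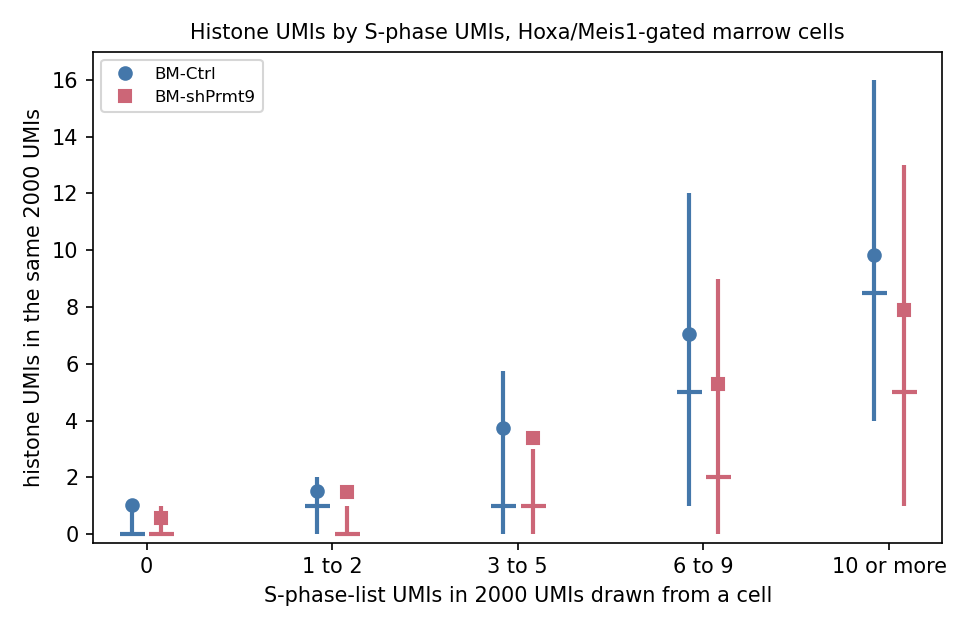
Histone UMIs among 2000 drawn per cell (y axis) by the number of S-phase UMIs among the same 2000 (x axis) in Hoxa/Meis1-gated cells. Dots are means, dashes medians and bars the quartiles; the means go from 1.03 to 9.84 in BM-Ctrl and from 0.552 to 7.91 in BM-shPrmt9.

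The study's own question was what the hairpin changed. In the Hoxa/Meis1-gated cells of bone marrow the members summed to 1724 CPM in the control and 2225 CPM with the hairpin, a ratio of 1.29 (1.28–1.30). The S-phase list went from 1526 to 2434 CPM in the same cells, 1.60-fold (1.59–1.61), and the mitosis list 1.27-fold. S-phase-gated cells were 36.1% of these cells in BM-Ctrl and 58.4% in BM-shPrmt9.

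Within the gate the summed levels were 3189 CPM in BM-Ctrl and 2948 CPM in BM-shPrmt9, a ratio of 0.925 (0.918–0.931), and outside it 769.9 and 752 CPM, a ratio of 0.977 (0.963–0.992). So the pooled sum was higher with the hairpin, while both parts of it were slightly lower, and the shares of the 2 parts differed. Each part mixed mitosis-gated and other cells. Cells of neither gate had 395 CPM in BM-Ctrl and 249 CPM in BM-shPrmt9. Cells with S-phase genes alone had 1359 and 1851 CPM, and those in both gates 5040 and 3993 CPM. By state the levels thus differed in both directions. These splits were added after the values had been seen. The clusters that held these cells differed between the libraries, as given above, and their part in the difference was not tested.

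Single members moved further than the sum. Of 62 members with at least 20 UMIs in both libraries together, 16 were over 2-fold higher with the hairpin, against 14.3% of all 14388 genes, and 3 were lower, against 6.65%. The members' median log2 ratio was 0.60 and that of all genes 0.04. Within the S-phase gate 9 of 62 were higher and 2 lower, against 12.6% and 6% of genes, and outside it 9 of 61 were higher and 3 lower, against 14.9% and 9.11%, so within each part the share of members past 2-fold was near the background.

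The largest ratios among members with at least 50 UMIs were those of the H2B gene Hist1h2bk, at 1.89, 8.58, 0.593 and 0.993 CPM, the H3 gene Hist1h3h, at 0.341, 1.43, 1.78 and 0.397 CPM, and the H2A gene Hist1h2ag, at 1.61, 6.64, 1.19 and 0.199 CPM. In bone marrow these were 4.55-fold (3.88–5.35), 4.18-fold (2.86–6.26) and 4.14-fold (3.48–4.94) higher with the hairpin. In spleen they rested on 1 to 5 UMIs per library. Hist1h2bk was 3.36-fold higher within the S-phase gate and 3.56-fold outside it, and 74.2% of its stretches of 50 bases occur in other members.

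The 3 members that were over 2-fold lower included the pair from mature neutrophils. Hist1h1c was at 86.9, 43.0, 32.6 and 28.6 CPM in the 4 libraries, with a bone marrow ratio of 0.495 (0.477–0.513). Hist1h2bc was at 30.002, 14.5, 35.005 and 15.3 CPM, with ratios of 0.483 (0.454–0.514) in bone marrow and 0.437 (0.307–0.624) in spleen, so both hairpin libraries were below both controls. The H3 gene Hist2h3c2 was at 1.33 and 0.366 CPM in bone marrow, a ratio of 0.274 (0.186–0.396). Hist1h1c was also lower with the hairpin within the S-phase gate, at 0.548 (0.523–0.575), and outside it, at 0.362 (0.338–0.386), and so was Hist1h2bc, at 0.681 and 0.408.

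The most abundant members lay between these ends. Hist1h2ap was at 702, 783, 959 and 707 CPM, so the bone marrow and spleen libraries went opposite ways. Hist1h1b was at 116, 263, 122 and 53.6 CPM and Hist1h2ae at 159.98, 259.7, 135.9 and 98.3 CPM, again higher with the hairpin in bone marrow and lower in spleen. Hist1h1e was nearly level within each tissue, at 112, 114, 81.9 and 86.2 CPM. Outside the S-phase gate in spleen the order was the other way, with Hist1h1b at 4.45 (1.67–16.7), Hist1h2ae at 3.48 (2.099–6.19) and Hist1h2ap at 4.22 (3.38–5.33) of the control, on 4, 16 and 83 control UMIs, and within it they were at 0.702, 0.877 and 0.979. The 152 hairpin cells outside it had a summed level of 821 CPM, but the 145 of them that also failed the mitosis gate had 254 CPM. The 27 control cells held no mitosis-gated cell, and these member ratios were not split further. Within the S-phase gate in bone marrow Hist1h1b was 1.45-fold (1.42–1.48) higher with the hairpin and Hist1h2ap 0.745 (0.736–0.753) of the control.

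**Figure D5:**
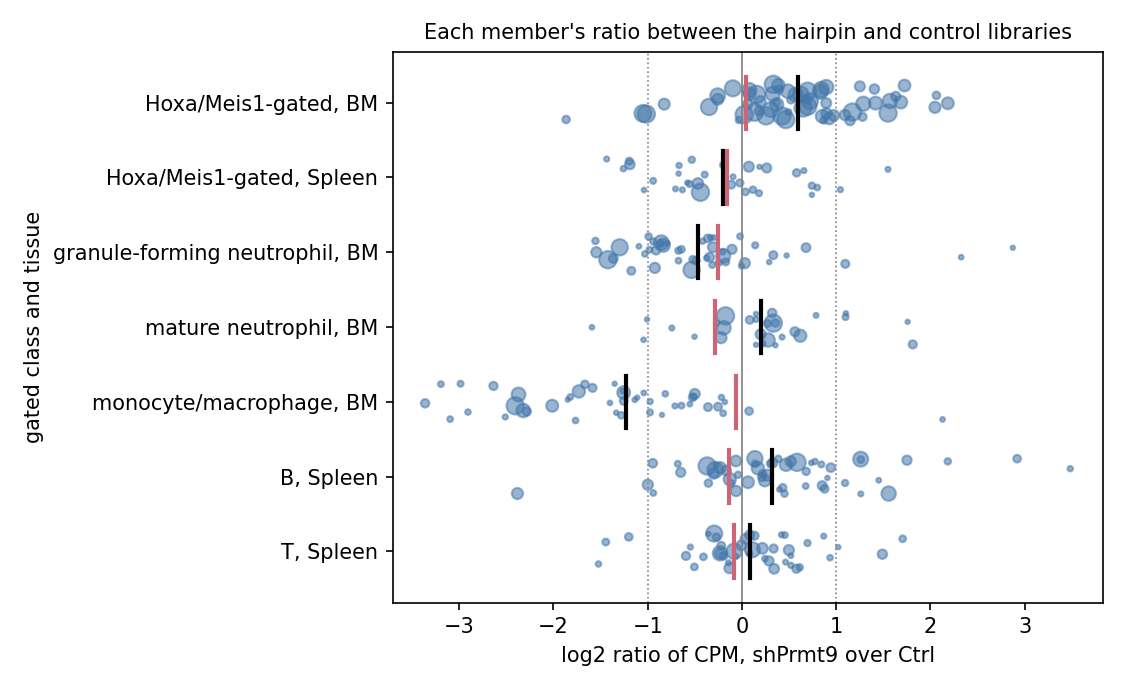
Log2 ratio of CPM, shPrmt9 over Ctrl (x axis), of each member with at least 20 UMIs, by class and tissue (y axis), with points larger for more UMIs. The black line is the median of the members and the red line that of all genes; they lie at 0.60 and 0.04 in Hoxa/Meis1-gated cells of bone marrow and at -1.23 and -0.06 in monocytes/macrophages of bone marrow.

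In spleen the Hoxa/Meis1-gated cells were few, 42 and 183. Their members summed to 1736 CPM in the control and 1354 CPM with the hairpin, a ratio of 0.780 (0.747–0.815), and the S-phase list was at 0.473 (0.453–0.494) of the control. Of 33 members with enough UMIs, 2 were over 2-fold higher with the hairpin, against 9.93% of genes, and 5 were lower, against 16.5%. Only 20 members had at least 50 UMIs, and the lowest and highest ratios are named among these. The lowest were those of the linker gene Hist1h1a (0.418, 0.236–0.748), Hist1h2bc and Hist1h1b (0.439, 0.364–0.528). The highest were those of the H2B gene Hist1h2be (1.74, 0.875–3.84), the H2A gene Hist2h2aa1 (1.67, 0.97–3.07) and Hist1h3c (1.495, 1.013–2.27). The difference from the bone marrow ratio was not tested, and the spleen ratio ranged from 0.662 to 0.923 over the other class definitions, scalings and cell filters. Split by the S-phase gate it was not below 1: the levels were 3390.4 and 3413 CPM in the 15 and 31 gated cells, a ratio of 1.007 (0.957–1.06), and 374 and 821 CPM in the other 27 and 152, a ratio of 2.19 (1.96–2.46). Those 27 control cells held no mitosis-gated cell, while 145 of the 152 hairpin cells passed neither gate. In cells of neither gate the levels were 374 and 254 CPM, so there the sum was below the control. Within the S-phase gate 1 of 24 members was over 2-fold higher and 1 lower, against 14% and 13% of genes. Outside it 10 of 22 were higher and 1 lower, against 9.13% and 15.3%. Gated cells were thus a larger share of the 42 control cells than of the 183 hairpin cells.

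Which cells of the other classes came from the host cannot be told here, since in BM-Ctrl Xist was counted at 293 CPM in T cells but at 0.229, 0.104 and 1.74 CPM in granule-forming neutrophils, mature neutrophils and monocytes/macrophages. By marker class the widest gap between libraries was in monocytes/macrophages of bone marrow. They had 1728 CPM over 553 cells in BM-Ctrl and 486 CPM over 308 cells in BM-shPrmt9, a ratio of 0.281 (0.269–0.293). Of 45 members 28 were over 2-fold lower, against 8.05% of genes, and 1 was higher, against 6.84%, and the members' median log2 ratio was -1.23 against -0.06. Only 29 members had at least 50 UMIs, and the lowest and highest ratios are named among these. The H2A genes Hist1h2ab (29.8 and 2.90 CPM) and Hist1h2af (7.07 and 0.773 CPM) and the H2B gene Hist1h2bb (6.61 and 0.773 CPM) had the lowest, of 0.0973 to 0.117. Hist3h2a (1.05), Hist1h2br (0.871) and Hist1h4i (0.839) had the highest. In the same cells the mitosis list was at 0.269 (0.259–0.279) of the control, with 18 of its 20 genes over 2-fold lower. Of the cells deep enough, 52 of 542 in BM-Ctrl and 4 of 301 in BM-shPrmt9 passed both the S-phase and the mitosis gate. Their levels were 5276 and 4779 CPM, and cells of neither gate had 547 and 304 CPM. Cluster 27 held 15.7% of the class in BM-Ctrl and 2.60% in BM-shPrmt9. The part of these differences in the ratio was not tested. With classes taken from clusters the ratio was 0.572, and the gap was then no longer the widest.

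Granule-forming neutrophils of bone marrow had 1551 CPM in BM-Ctrl and 804 CPM in BM-shPrmt9, a ratio of 0.518 (0.507–0.530), beside 0.524 for the S-phase list and 0.534 for the mitosis list. The S-phase gate took 49 of 806 cells in BM-Ctrl and 49 of 1720 in BM-shPrmt9. Cells of neither the S-phase nor the mitosis gate were not lower with the hairpin, at 264 and 285 CPM. Of 48 members 8 were over 2-fold lower, against 6.43% of genes, and 3 higher, against 4.01%. Among the 39 members with at least 50 UMIs, the lowest ratios were those of Hist1h2ak (0.341), Hist1h2ab (0.343) and Hist1h2ap, at 618.5 and 230.8 CPM (0.373, 0.359–0.388). The highest among these 39 were those of Hist3h2a (2.14), Hist1h4i (1.60) and Hist1h2be (1.26).

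Mature neutrophils of bone marrow were nearly level, at 805 and 875 CPM, a ratio of 1.09 (1.06–1.12). The cells came from different clusters, 91.6% of them from cluster 2 in BM-Ctrl and 96.4% from cluster 1 in BM-shPrmt9. Of 29 members 4 were over 2-fold higher, against 3.69% of genes, and 3 lower, against 5.83%. The members' median log2 ratio was 0.20 and that of all genes -0.29. The highest ratios among the 16 members with at least 50 UMIs were those of Hist3h2a, Hist1h1d and Hist1h4i. Hist3h2a was at 3.65 and 12.8 CPM (3.51, 2.45–5.18), Hist1h1d at 1.77 and 3.80 CPM (2.14) and Hist1h4i at 35.4 and 54.4 CPM (1.54). The lowest among these 16 were those of the H4 gene Hist1h4h (0.831), Hist2h2aa1 (0.858) and Hist1h1e (0.876). Among members with at least 50 UMIs, Hist3h2a had the highest ratio in both neutrophil classes of bone marrow. It was also highest in monocytes/macrophages, at 1.05 (0.777–1.42), and in late erythroid cells of this tissue, at 2.27 (1.85–2.80). In Hoxa/Meis1-gated cells of bone marrow it was lower with the hairpin, at 5.14 and 2.90 CPM.

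Spleen T cells, with 514 CPM over 1906 cells and 504 CPM over 2423 cells, did not differ beyond counting error, at a ratio of 0.980 (0.953–1.008). Clusters 7 and 15 held 50.997% and 42.03% of them in Spleen-Ctrl, and clusters 5 and 11 held 51.01% and 40.6% in Spleen-shPrmt9. Of 43 members 3 were over 2-fold higher, against 4.58% of genes, and 3 lower, against 8.71%. Among the 34 members with at least 50 UMIs, the highest ratios were those of the H4 gene Hist1h4n (3.26, 1.99–5.59), Hist1h2bc, at 5.12 and 14.4 CPM (2.81, 2.22–3.60), and the H3 gene Hist1h3i (1.91). The lowest among these 34 were those of Hist1h3c (0.348), Hist1h1a (0.367) and the H2B gene Hist3h2ba (0.435).

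Spleen B cells had 1021 CPM over 4700 cells in Spleen-Ctrl and 1300.3 CPM over 680 cells in Spleen-shPrmt9, a ratio of 1.27 (1.25–1.30), which turned to 0.945 without the 1% of cells with the most histone UMIs and to 0.793 with classes from clusters. Cluster 0 held 76.2% of these cells in the control and cluster 9 held 78.5% with the hairpin, and the part of such cluster differences in these ratios was not tested. Of 54 members 10 were over 2-fold higher, against 4.11% of genes, and 1 lower, against 9.09%. Hist1h3c was at 1.58 and 11.98 CPM (7.57, 5.52–10.5), the H3 gene Hist1h3b at 1.10 and 4.997 CPM (4.55) and Hist1h2ab at 5.66 and 19.0 CPM (3.37). Of 20 mitosis genes, 15 were over 2-fold higher in the same cells. The H4 gene Hist2h4 was at 20.6 and 3.96 CPM (0.192, 0.137–0.262), and Hist3h2ba (0.501) and Hist4h4 (0.519) followed it.

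Of the other classes, NK cells of spleen had 733 and 1064 CPM, a ratio of 1.45 (1.34–1.57), while their S-phase list was at 0.399 of the control. T cells of bone marrow had 369.8 and 510.05 CPM, a ratio of 1.38 (1.23–1.54), which was 1.03 without the 1% of cells with the most histone UMIs. Basophil/mast cells had 4722 and 3666 CPM, a ratio of 0.776 (0.746–0.808). Late erythroid cells of spleen, whose leading genes are globins, had a ratio of 1.19 (1.12–1.26) where the median log2 ratio of all their genes was -0.96, so their single members were not counted past 2-fold.

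The other genes of histone supply were read from 5 lists in the Hoxa/Meis1-gated cells. Of 30 S-phase genes 8 were over 2-fold higher with the hairpin in bone marrow and 0 lower, with a median log2 ratio of 0.81, and in spleen 0 were higher and 19 lower, with a median of -1.09. Its most abundant genes were Dut, which removes dUTP, at 342, 340.3, 284 and 82.8 CPM in the 4 libraries, Pcna, the sliding clamp of replication, at 117, 167, 155 and 117 CPM, and the helicase subunit gene Mcm6, at 89.4, 169.4, 129 and 75.4 CPM. Of 20 mitosis genes 0 passed 2-fold in bone marrow, with a median of 0.38, and in spleen 2 were higher and 1 lower. Of these, Top2a, which untangles DNA, was at 213, 212, 112 and 72.9 CPM, the ubiquitin-conjugating enzyme gene Ube2c at 196, 169, 62.9 and 57.2 CPM, and the proliferation marker Mki67 at 95.4, 163, 48.1 and 85.2 CPM.

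Of 21 genes of histone mRNA transcription, 3′ end formation and decay, 1 was over 2-fold higher in bone marrow and 0 lower, with a median log2 ratio of -0.11, and in spleen 0 were higher and 6 lower, with a median of -0.69. The 1 gene was Slbp, which binds the stem-loop shown above, at 57.8, 135, 106 and 102 CPM, a ratio of 2.33 (2.26–2.40) in bone marrow and 0.959 (0.807–1.14) in spleen. The most abundant of the list were the Sm protein genes Snrpg, with bone marrow and spleen ratios of 0.910 and 0.347, Snrpe, with 0.818 and 0.419, and Snrpf, with 1.24 and 0.511.

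The 11 genes listed as replication-independent histone variants were together counted at higher levels than the members. They summed to 6903, 5732, 6266 and 4964 CPM, and 1 was over 2-fold higher and 1 lower in bone marrow and 0 and 1 in spleen. H3f3b, which encodes H3.3, was at 2086, 934, 1552 and 969 CPM (0.448 and 0.624), its sister gene H3f3a at 2000.4, 1761, 2081 and 2197 CPM (0.881 and 1.06), and H2afz, which encodes H2A.Z, at 1068, 1698, 1538 and 1120.1 CPM (1.59 and 0.728). Of 12 histone chaperone genes 1 was over 2-fold higher and 0 lower in bone marrow and 0 higher and 5 lower in spleen. The 3 most abundant chaperone genes, Atrx, Rbbp4 and Rbbp7, had bone marrow ratios of 0.896, 1.12 and 1.05 and spleen ratios of 0.615, 0.784 and 0.441.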

How the data were processed

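The authors deposited, for each of the 4 libraries, a sparse matrix of unnormalized UMI counts of 32285 genes by cell barcodes. It came from Cell Ranger; the file headers give version 6.0.2 and 6.1.1 stands in the submitters' processing notes, with mm10 as the build; the annotation release was not given in the sources used here. Reads come from a 3′ kit primed on poly(A). The titles gave each library's group. The members and lists were chosen with earlier results of these data known.

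Barcodes with under 200 genes or over 20% mitochondrial UMIs were left out, and the cells with the highest Scrublet scores (scanpy 1.11.5), at 0.8% per 1000 cells, were left out as likely doublets, which were 744 and 999 cells of the bone marrow libraries and 640 and 520 of the spleen libraries, control before hairpin. Cells with UMIs of at least 3 of the 6 MA9 markers were taken first, whatever their other scores. Each other cell took the class with the highest mean marker score if that was at least 1, at least 0.5 above the next class and rested on at least 2 markers. The rule that combines the markers was set after the data had been seen, so values can differ from the study's through the classes alone. Classes with at least 30 cells were used, and S-phase ratios needed 20 cells on each side. Counts were summed per class and library and scaled to CPM. Intervals at 95% are exact Poisson for levels and exact conditional binomial for ratios. Ratios were tested on simulated data. Named members were the 12 with the most UMIs, those at 0, and, per class compared, the 3 highest and 3 lowest ratios among members with at least 50 UMIs. Named list genes were the 3 with the most UMIs of each list; Slbp was added afterwards. Python 3.11.15, scipy 1.17.1 and edgeR 4.0.16 (for TMM factors only) were used. Alternatives were clusters (clustered without histone, S-phase and mitosis genes) as classes, doublets kept, a stricter margin of 1 (with 4 of 6 MA9 markers needed), TMM factors, equal weight per cell, the top 1% of cells left out, and other minimum counts and S-phase gates. Leaving out mitosis-gated cells and splitting the Hoxa/Meis1-gated cells by the S-phase gate were chosen after seeing the data.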

Additional observations from a re-analysis of the deposited data

Results flagged for a closer look

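The summed histone ratio, shPrmt9 over Ctrl, pointed in opposite directions in bone marrow and spleen in 3 classes, and none of these differences was tested, since each tissue has 1 library per group. In Hoxa/Meis1-gated cells it was 1.29 in bone marrow and 0.780 in spleen, and in neither tissue did the direction hold within the S-phase-gated cells or within the other cells. These parts mix mitosis-gated and other cells. In spleen, cells of neither gate had 374 and 254 CPM, control before hairpin, in the direction of the pooled ratio. In bone marrow, cells with S-phase genes alone had 1359 and 1851 CPM, also in its direction, but those of neither gate had 395 and 249 CPM. In B cells the ratio was 0.527 in bone marrow, over 42 cells with the hairpin, and 1.27 in spleen. In late erythroid cells it was 0.906 in bone marrow and 1.19 in spleen.

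Cells that passed no class gate, and so entered no comparison, also carried histone counts. Their summed level was 1788 and 829.8 CPM in bone marrow without and with the hairpin, and 752 and 622 CPM in spleen.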

How the results depend on the processing

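No paired analysis was possible because each group has 1 library and the labels give no shared replicate numbers. With 1 library per group no replicate could be left out either. Of 93 hairpin ratios recomputed, 32 moved by less than their counting interval, 49 moved by more and 12 reversed; of 42 counts past 2-fold 20 stayed within 1.5 times, of 8 ranks 1 was the same and of 30 S-phase ratios 2 were and 1 reversed. The ratios in Hoxa/Meis1-gated, granule-forming and monocyte cells kept their direction under each planned setting, and those of B, earlier erythroid, late erythroid and spleen T cells did not. In a split by the S-phase gate, chosen after seeing the data, the Hoxa/Meis1-gated ratio turned to 0.925 in gated and 0.977 in other cells of bone marrow and to 1.007 and 2.19 in those of spleen. Each part mixes mitosis-gated and other cells, and in bone marrow the levels by both gates, given above, went in both directions. The cause of each change was not tested. With classes from clusters the hairpin ratio was 1.31 in Hoxa/Meis1-gated BM, 0.662 in Hoxa/Meis1-gated Spleen, 0.499 in granule-forming neutrophil BM, 1.06 in mature neutrophil BM, 0.572 in monocyte/macrophage BM, 0.675 in B BM, 1.37 in earlier erythroid BM, 0.953 in late erythroid BM, 1.30 in late erythroid Spleen and 0.829 in basophil/mast BM, and it turned to 0.793 in B Spleen. With doublets kept the hairpin ratio was 1.30 in Hoxa/Meis1-gated BM, 0.864 in Hoxa/Meis1-gated Spleen, 0.473 in granule-forming neutrophil BM, 1.22 in T BM, 1.07 in earlier erythroid BM and 0.948 in late erythroid BM, and it turned to 1.68 in B BM. Without the 1% of cells with the most histone UMIs the hairpin ratio was 1.32 in Hoxa/Meis1-gated BM, 0.885 in Hoxa/Meis1-gated Spleen, 0.430 in granule-forming neutrophil BM, 0.225 in monocyte/macrophage BM, 1.03 in T BM, 1.10 in T Spleen, 1.21 in earlier erythroid BM and 0.724 in basophil/mast BM, and it turned to 0.945 in B Spleen. With TMM factors the hairpin ratio was 1.24 in Hoxa/Meis1-gated BM, 0.923 in Hoxa/Meis1-gated Spleen, 0.623 in granule-forming neutrophil BM, 1.35 in mature neutrophil BM, 1.06 in T Spleen, 1.36 in B Spleen, 0.860 in late erythroid BM, 2.64 in late erythroid Spleen and 0.819 in basophil/mast BM, and it turned to 0.992 in earlier erythroid BM. With every cell's CPM weighted equally the hairpin ratio was 1.10 in Hoxa/Meis1-gated BM, 0.649 in granule-forming neutrophil BM, 1.05 in mature neutrophil BM, 0.366 in monocyte/macrophage BM, 1.11 in T BM, 1.08 in T Spleen, 1.04 in earlier erythroid BM and 0.707 in basophil/mast BM, and it turned to 0.968 in B Spleen, 1.10 in late erythroid BM and 0.870 in late erythroid Spleen. With 4 of 6 MA9 markers needed the hairpin ratio was 0.903 in Hoxa/Meis1-gated Spleen. With the stricter margin it was 0.246 in monocyte/macrophage BM, 1.08 in T BM, 1.04 in T Spleen, 1.30 in B Spleen, 0.954 in late erythroid BM, 1.29 in late erythroid Spleen and 0.740 in basophil/mast BM, and it turned to 0.989 in earlier erythroid BM. With no minimum and 0.5 UMI added the count of members past 2-fold was 6 higher in Hoxa/Meis1-gated Spleen, 15 lower in Hoxa/Meis1-gated Spleen, 6 higher in granule-forming neutrophil BM, 17 lower in granule-forming neutrophil BM, 2 higher in monocyte/macrophage BM, 13 higher in mature neutrophil BM, 5 lower in mature neutrophil BM, 7 higher in T Spleen, 18 higher in B Spleen and 3 lower in B Spleen. With at least 100 UMIs the count of members past 2-fold was 0 higher in Hoxa/Meis1-gated Spleen, 2 lower in Hoxa/Meis1-gated Spleen, 1 higher in granule-forming neutrophil BM, 5 lower in granule-forming neutrophil BM, 0 higher in monocyte/macrophage BM, 13 lower in monocyte/macrophage BM, 1 higher in mature neutrophil BM, 0 lower in mature neutrophil BM and 5 higher in B Spleen. With TMM factors the count of members past 2-fold was 2 lower in Hoxa/Meis1-gated Spleen, 5 lower in granule-forming neutrophil BM and 1 lower in mature neutrophil BM. With every cell's CPM weighted equally the Hoxa/Meis1-gated cells ranked 5 in BM-Ctrl, 5 in BM-shPrmt9, 2 in Spleen-Ctrl and 4 in Spleen-shPrmt9. With classes from clusters the Hoxa/Meis1-gated cells ranked 4 in BM-Ctrl, 2 in BM-shPrmt9 and 3 in Spleen-shPrmt9. With an S-phase gate of at least 2 the ratio of gated to other cells was 4.32 in Hoxa/Meis1-gated BM-Ctrl, 4.73 in Hoxa/Meis1-gated BM-shPrmt9, 6.03 in Hoxa/Meis1-gated Spleen-shPrmt9, 19.9 in granule-forming neutrophil BM-Ctrl, 12.8 in granule-forming neutrophil BM-shPrmt9, 5.67 in monocyte/macrophage BM-Ctrl, 2.59 in earlier erythroid BM-Ctrl, 1.76 in T Spleen-Ctrl, 1.24 in T Spleen-shPrmt9, 1.38 in B Spleen-Ctrl and 3.92 in B Spleen-shPrmt9. With an S-phase gate of at least 5 the ratio of gated to other cells was 3.70 in Hoxa/Meis1-gated BM-Ctrl, 2.86 in Hoxa/Meis1-gated BM-shPrmt9, 7.88 in granule-forming neutrophil BM-Ctrl, 14.0 in granule-forming neutrophil BM-shPrmt9, 4.78 in monocyte/macrophage BM-Ctrl, 2.55 in earlier erythroid BM-Ctrl, 1.77 in earlier erythroid BM-shPrmt9, 4.10 in T Spleen-Ctrl, 2.79 in T Spleen-shPrmt9 and 3.40 in B Spleen-Ctrl. Without mitosis-gated cells, chosen after seeing the data, the ratio of gated to other cells was 3.44 in Hoxa/Meis1-gated BM-Ctrl, 7.42 in Hoxa/Meis1-gated BM-shPrmt9, 1.32 in Hoxa/Meis1-gated Spleen-shPrmt9, 1.77 in T Spleen-Ctrl, 1.15 in T Spleen-shPrmt9, 0.920 in B Spleen-Ctrl and 1.37 in B Spleen-shPrmt9. Not run were the stricter margin for B cells of bone marrow, which left 27 cells, and the S-phase gate of at least 5 for Hoxa/Meis1-gated cells of Spleen-shPrmt9, which left 17. Without mitosis-gated cells, 3 to 10 gated cells were left in granule-forming neutrophils, monocytes/macrophages and earlier erythroid cells, so no ratio was computed there. Classes of under 100 cells and members of under 100 UMIs have wide counting intervals, and the spread between mice is not known.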
